A study of Mus musculus with 8 samples.

Results

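The genes described here are 9 that encode myokines, proteins that skeletal muscle releases to act on itself or on other organs: Fndc5, Il15, Metrnl, Ostn, Bdnf, Cxcl12, Lif, Il6 and Fgf21. They were chosen by symbol, with earlier results of these data known, and all 9 were found among the 53819 gene symbols of the count table. Their messenger RNA was measured in the quadriceps muscle of wild type C57BL/6J mice, which were 8 weeks old when the experiment began. In the tumor group, 4 mice were injected under the skin of the nape with 500000 cells of B0092, a head and neck squamous cell carcinoma line, and 4 control mice were injected with the saline vehicle. All muscles were taken on day 36, and the 8 libraries were made from 8 different mice. The tumors came from a single cell line, and the muscle analysed lay away from the injection site.

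Contracting muscle is known to secrete peptides that reach fat, liver, bone, nerve and immune cells, and several of these are induced by exercise or by the coactivator PGC-1alpha. Some act locally on fibres, satellite cells and vessels, while others circulate as hormones. In cancer cachexia, the wasting of muscle that accompanies a tumor, cytokines of the interleukin 6 family are best known as signals that reach the muscle from outside, so that their receptors as well as their own transcripts are of interest.

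In tumor-bearing mice, Ostn and Cxcl12 fell, and all 4 tumor values of each lay below all 4 control values. Ostn, which encodes the natriuretic-like peptide musclin, was 8.11-fold lower, and the chemokine gene Cxcl12 was 2.63-fold lower. Fndc5, the precursor of irisin, and Il15 had lower means in tumor mice, but neither passed the test and their groups overlapped. Metrnl and Bdnf did not pass either, and Lif, Il6 and Fgf21 were counted too rarely to be tested. Thus 2 of the 9 genes were called, both lower, 4 were tested without a call and 3 were not tested. A gene was called when its p, adjusted over all 14070 genes tested by the method of Benjamini and Hochberg, was below 0.05 in edgeR's quasi-likelihood test. Of all tested genes 19.8% were called, 8.73% lower and 11% higher, and 3.92% were called and more than 2-fold lower. Groups did not overlap in 25% of all tested genes, and tumor values lay wholly below control values in 11.5%. With upper-quartile scaling 1169 genes were called higher and 1547 lower, against 1552 and 1229 with the scaling used here.

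The promoter of Cxcl12, the more abundant of the 2 genes that fell, and that of Fndc5, the most abundant of the 9, are shown to place both genes in the genome and to give the letters around their starts. RefSeq promoter entries (build GRCm38.p6) were found for 7 of the 9 genes. The Cxcl12 stretch is the 250 bases before the start site, at chr6:117168285-117168534 on the plus strand. Of the 250 bases before the Fndc5 start site, the 118 farthest from it are shown, at chr4:129136749-129136866 on the plus strand. They end where the first annotated exon within those 250 bases begins. Capitals mark the GC box GGGCGG on either strand.
Cxcl12: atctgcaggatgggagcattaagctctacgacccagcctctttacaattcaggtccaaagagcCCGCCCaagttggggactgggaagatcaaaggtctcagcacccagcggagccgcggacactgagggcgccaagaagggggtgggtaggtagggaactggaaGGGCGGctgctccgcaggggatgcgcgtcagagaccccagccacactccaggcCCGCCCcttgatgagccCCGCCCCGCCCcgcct
Fndc5: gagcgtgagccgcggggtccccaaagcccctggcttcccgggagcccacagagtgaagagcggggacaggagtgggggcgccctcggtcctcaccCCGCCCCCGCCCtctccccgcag
The Cxcl12 stretch held 5 GC boxes, of which the 2 nearest the start overlap by a base, and was 64.4% G and C. A GC box was found in 32.7% of the 32851 promoters of the table over the same 250 bases, and 5 or more in 1.93%. The full 250 bases before the Fndc5 start site held 3, as many or more than which were found in 8.47% of promoters. Neither 250-base window held AAGGTCA (estrogen-related receptor element), GTAAACA (forkhead), TGACGTCA (cyclic AMP response), CAGCTG (an E-box) or TATAAA on either strand. ACGTG, the core of a hypoxia response element, was found once in the Fndc5 window and in 16.6% of all promoters. These matches describe letters, and say nothing of which factor was bound.

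The libraries held 28436205 to 36139462 counts. Muscle markers such as Acta1, Ckm and the fast myosin Myh4 were abundant in all libraries. The sum of 12 muscle fibre markers was 141630 to 188850 CPM in controls. It was 189270, 141130, 162260 and 88521 CPM in tumor libraries 1 to 4, so that tumor library 4 was the lowest. Acta1 was lower and Des higher in every tumor library than in any control. Of 12 squamous epithelial markers, 6 (Krt5, Krt14, Krt6a, Krt17, Dsg3 and Krt1) had no count in any library and 3 were tested. Their summed level was 8.84 to 11.9 CPM in controls and 18.2 to 39.1 CPM in tumor libraries, without overlap, and most of it was Trp63, which rose from 8.17 ± 1.43 to 24.6 ± 8.86 CPM, while Krt10 fell. The sum of 6 satellite cell markers was 29.9 to 31.9 CPM in controls and 53.9 to 78.4 CPM in tumor libraries, without overlap. Most of this sum was Cdh15, which was called higher, while Vcam1 was called lower and Pax7, Myf5 and Chodl were not called. Per kilobase of the longest coding transcript, mean Cdh15 went from 6.47 to 17.6 CPM. On that scale Pax7 went from 0.422 to 0.397, Myf5 from 0.417 to 0.406 and Chodl from 1.35 to 1.52 CPM. Macrophage and leukocyte markers summed to 57.9 to 103 CPM in controls and 37.9 to 149 CPM in tumor libraries, with S100a8 higher and the other 8 of 9 tested not called. The part of these cells in the results was not tested. Control library 4 and tumor library 2 each had the lowest Myh4 ratio of their group, at the end of a graded spread. On the log2 scale, the ratio of Myh4, the myosin of the fastest fibres, to Myh7, Myh2 and Myh1 added together was 0.87 for control 4, against 2.95 to 5.60 for controls 1 to 3. For tumor 2 it was 2.03, against 4.32 to 6.51 for tumors 1, 3 and 4. Some results are also given without either or both of these libraries.

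Levels of the 9 genes were compared with each other per kilobase of the longest protein-coding transcript, on the scale of counts per 1000000 scaled by TMM factors (CPM). In controls Fndc5 came first at 33.7 ± 26.0 CPM per kilobase (SD, n = 4), followed by Cxcl12 at 9.35 ± 3.23, and their ranges overlapped. Metrnl followed at 2.31 ± 1.04, below every control value of Cxcl12. Ostn (1.51 ± 0.47) and Il15 (0.717 ± 0.364) came next, and each of these ranges overlapped that of its neighbour. Bdnf stood at 0.133 ± 0.162 and Lif at 0.0730 ± 0.0543, and Fgf21 and Il6 were at the level of single counts. In tumor mice the order was the same for Fndc5 (8.89 ± 6.23), Cxcl12 (3.55 ± 0.72) and Metrnl (1.87 ± 0.91), with Cxcl12 again above every value of Metrnl. Below them Il15 (0.312 ± 0.135) came before Ostn (0.185 ± 0.094), and their ranges overlapped. All tumor values of Metrnl lay above those of Il15. Transcript choice affects these levels, since the annotated coding transcripts of Cxcl12 run from 1878 to 5627 bases and those of Il15 from 430 to 1908 bases.

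**Figure D1:**
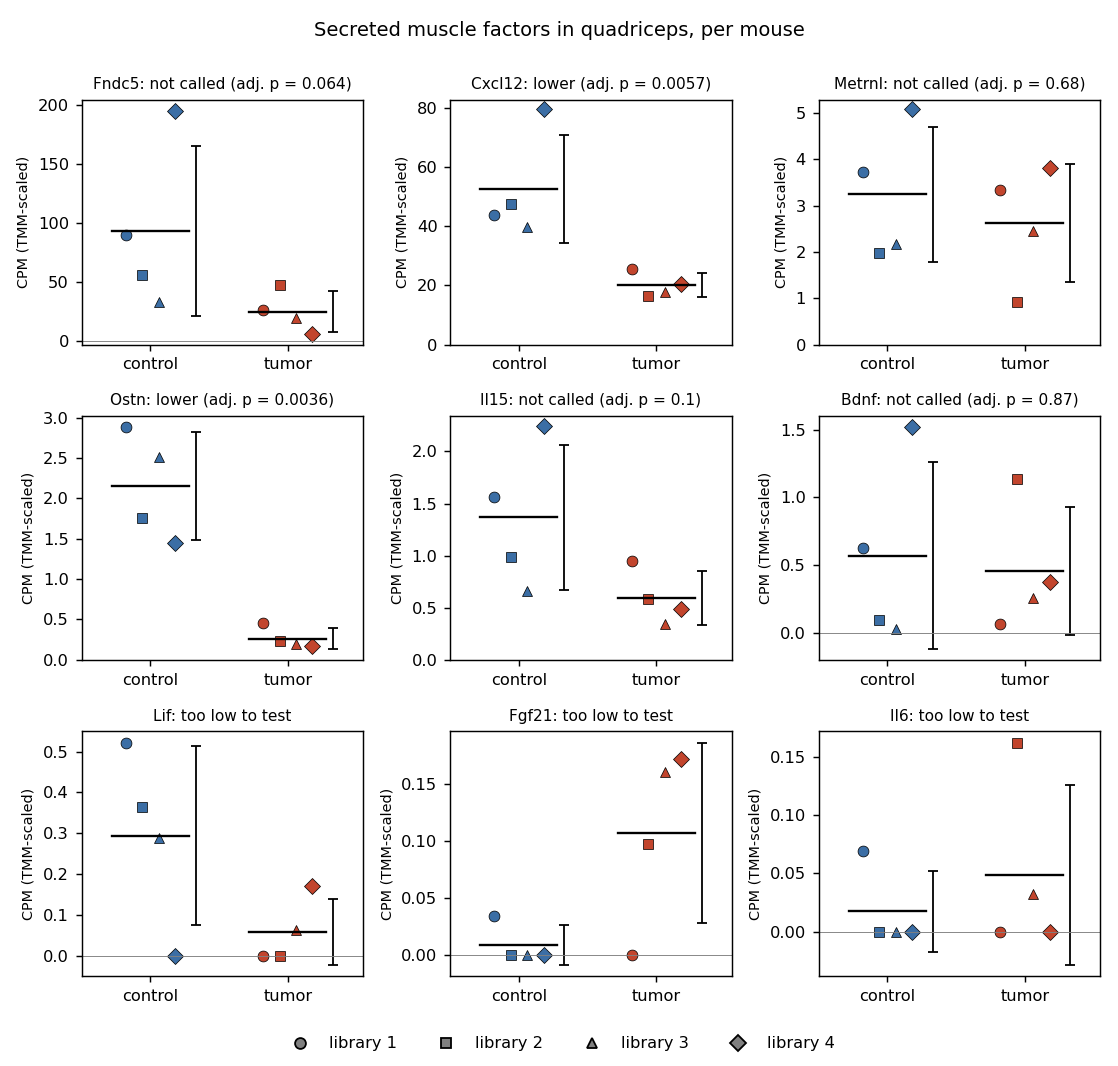
Level of each of the 9 genes in CPM (vertical axes, separate scales) in 4 control and 4 tumor libraries; points are single mice, horizontal lines group means and bars 1 SD. Ostn and Cxcl12 are the genes whose groups do not overlap, while control library 4 is the highest point for Fndc5, Cxcl12, Metrnl, Il15 and Bdnf.

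Ostn encodes musclin, a muscle peptide that resembles the natriuretic peptides and binds NPR3, the receptor that clears them. Ostn was at 2.89, 1.75, 2.52 and 1.45 CPM in control libraries 1 to 4, and at 0.46, 0.23, 0.19 and 0.17 CPM in tumor libraries 1 to 4. The lowest control lay above the highest tumor library, and the highest and lowest values differed 1.99-fold among controls and 2.68-fold among tumor libraries. The means were 2.15 ± 0.67 and 0.263 ± 0.134 CPM (SD, n = 4 each), a log2 change (the log2 of the fold change, tumor over control) of -3.02 ± 0.42 (SE) with adjusted p = 0.00355 by edgeR. In counts the tumor libraries held 6 to 14 reads of Ostn and the controls 40 to 87. Ostn passed the count filter through all 4 controls and 1 tumor library, and so mainly through the group in which it was higher. The fall was called in all 18 alternatives in which Ostn could be tested, with log2 changes from -3.42 to -2.85. With the fibre ratio as a covariate it was -3.21 (adjusted p = 0.00311, over a range of 3.57e-09 to 0.0202 for all alternatives), and without control library 4 and tumor library 2 it was -3.12.

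The receptor side of musclin did not pass the test. Npr3, the clearance receptor, was at 10.7, 6.29, 2.75 and 17.6 CPM in controls and at 1.91, 6.75, 1.51 and 1.23 CPM in tumor libraries. Tumor library 2 lay within the control range and the other 3 tumor libraries below it. The log2 change was -1.71 ± 0.66, with adjusted p = 0.0938 by edgeR. It became -2.62 (adjusted p = 0.0176) without tumor library 2 and -1.21 (adjusted p = 0.228) without control library 4. Over all alternatives the adjusted p ran from 0.0176 to 0.228. Npr1 and Npr2, the natriuretic peptide receptors that signal through cyclic GMP, had log2 changes of -0.26 ± 0.16 (adjusted p = 0.289) and -0.25 ± 0.21 (adjusted p = 0.416). Of the peptides that share these receptors, Nppc lay between 0 and 0.73 CPM and did not pass (adjusted p = 0.283). Nppa had no count and Nppb 1 count in all 8 libraries.

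Cxcl12 encodes the chemokine SDF-1, which holds blood and progenitor cells in their niches and which stromal and vascular cells are known to produce. Cxcl12 was at 43.9, 47.4, 39.7 and 79.5 CPM in control libraries 1 to 4, and at 25.5, 16.4, 17.7 and 20.3 CPM in tumor libraries 1 to 4. Control library 4 was the highest, and the other 3 controls were also above every tumor library. The means were 52.6 ± 18.2 and 20 ± 4.03 CPM, with a log2 change of -1.39 ± 0.24 and adjusted p = 0.00567 by edgeR. The fall was called in all 19 alternatives, with log2 changes from -1.53 to -1.05 and adjusted p from 1.03e-06 to 0.0264. The smallest size was found without control library 4 and tumor library 2.

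Some markers of the cells that can make Cxcl12 were also called lower in tumor mice. In bulk muscle, fewer cells of a type and less RNA per cell cannot be told apart. The summed level of 10 endothelial markers was 244, 216, 199 and 313 CPM in control libraries 1 to 4 and 175, 221, 141 and 114 CPM in tumor libraries 1 to 4. Tumor libraries 1, 3 and 4 lay below all controls and tumor library 2 within their range. Of these markers, to which Cdh5 and Flt1 added the most counts, 5 fell (Kdr, Tek, Emcn, Egfl7 and Tie1). The sum of 6 mural cell markers was 170 to 343 CPM in controls and 103 to 216 CPM in tumor libraries. Here Rgs5 and Pdgfrb added the most counts, and 4 of the 6 fell. The sum of 11 fibro-adipogenic progenitor markers was 1372, 1232, 1220 and 837 CPM in controls and 1291, 760, 725 and 678 CPM in tumor libraries. Tumor libraries 2, 3 and 4 lay below all controls and tumor library 1 within their range, and 2 of the 11 fell (Col3a1 and Pi16). Gsn added the most counts to this sum. Of the 11, 9 had a log2 change below 0, while Pdgfra and Dcn, not called, had slightly higher means in tumor mice. Over all tested genes 8.73% were called lower. The part of these cells in the fall of Cxcl12 was not tested.

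The receptors of Cxcl12 did not pass the test. Cxcr4, which transmits its signal, lay at 1.07 to 1.39 CPM in controls and 0.72 to 1.75 CPM in tumor libraries (log2 change -0.11 ± 0.33, adjusted p = 0.84). All 4 control values lay inside the tumor range. Ackr3, which scavenges the chemokine, had a log2 change of -0.41 ± 0.16 (adjusted p = 0.105). Dpp4, a peptidase known to inactivate Cxcl12, had a log2 change of -0.31 ± 0.25 (adjusted p = 0.412).

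Fndc5 encodes a membrane protein whose outer part is shed as irisin, a factor that acts on fat and bone. Fndc5 was at 89.9, 55.3, 32.4 and 195 CPM in control libraries 1 to 4, and at 25.7, 47.3, 19.4 and 5.97 CPM in tumor libraries 1 to 4. Tumor libraries 1, 3 and 4 lay below all controls, and tumor library 2 lay between controls 3 and 2. The spread within groups was wide, with 6.02-fold between the highest and lowest control and 7.91-fold between tumor libraries. The means were 93.2 ± 71.9 and 24.6 ± 17.2 CPM, and the log2 change of -1.92 ± 0.65 (95% interval -3.38 to -0.47) had adjusted p = 0.0642 by edgeR. It passed in 5 of 19 alternatives, including DESeq2 (adjusted p = 0.0425) and the fits without tumor library 2 (adjusted p = 0.035) or without both that library and control library 4 (adjusted p = 0.0424). Over all alternatives the adjusted p ran from 0.0176 to 0.164, and without control library 4 the log2 change was -1.27.

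Among regulators known to act on Fndc5, the coactivator gene Ppargc1a did not pass (log2 change -0.55 ± 0.26, adjusted p = 0.171). Esrra, an orphan receptor that works with PGC-1alpha, fell from 96.2 ± 21.9 to 40.6 ± 5.51 CPM (adjusted p = 0.00358, edgeR). The integrin genes Itgav and Itgb5, which encode a reported irisin receptor, had log2 changes of -0.27 ± 0.14 (adjusted p = 0.195) and 0.10 ± 0.19 (adjusted p = 0.763). The sign of the Itgb5 value was negative without tumor library 2 (-0.016).

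Il15 encodes a cytokine of lymphocytes that muscle also makes and that was described as anabolic for fibres. Il15 was at 1.57, 0.99, 0.67 and 2.25 CPM in control libraries 1 to 4, and at 0.955, 0.58, 0.35 and 0.49 CPM in tumor libraries 1 to 4. Tumor library 1 lay among the controls, and the other 3 lay below all of them. The log2 change was -1.19 ± 0.47 (95% interval -2.24 to -0.15), with adjusted p = 0.1 by edgeR. It passed in 0 of the 18 alternatives that could test it, whose adjusted p ran from 0.0617 to 0.275. In counts Il15 had 23 to 62 reads in controls and 11 to 29 in tumor libraries. Its private receptor chain gene Il15ra did not pass (log2 change -0.18 ± 0.25, adjusted p = 0.648), nor did the shared chain gene Il2rg (-0.66 ± 0.40, adjusted p = 0.274), and Il2rb was not tested.

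Metrnl encodes meteorin-like, a factor released after exercise that acts on fat tissue and on vessel growth. Metrnl was at 3.72, 1.98, 2.17 and 5.07 CPM in control libraries 1 to 4, and at 3.32, 0.91, 2.44 and 3.82 CPM in tumor libraries 1 to 4. Tumor library 2 was the lowest, and the other 3 lay within the control range. The log2 change was -0.30 ± 0.45 (95% interval -1.30 to 0.71, adjusted p = 0.676, edgeR), and its sign turned without control library 4 (0.0021) and without that library and tumor library 2 (0.28). Its relative Metrn (meteorin), a factor of glia and nerve, went from 20.2 ± 3.15 to 6.47 ± 2.46 CPM (log2 change -1.64 ± 0.25, adjusted p = 0.00407), with groups that did not overlap. The difference between both genes was not tested. Kit, which encodes a reported receptor of meteorin-like, did not pass (log2 change 0.17 ± 0.53, adjusted p = 0.844), and its sign turned when control 4 was left out (-0.097), alone or with tumor 2 (-0.18).

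Bdnf encodes brain-derived neurotrophic factor, which muscle is known to make in small amounts. Bdnf had counts of 18, 3, 1 and 42 in control libraries 1 to 4 and of 2, 35, 8 and 13 in tumor libraries 1 to 4. The high libraries were control 4 and tumor 2, one in each group, and both groups also held libraries near 0. The log2 change was -0.29 ± 1.04 (95% interval -2.63 to 2.04, adjusted p = 0.869, edgeR), an interval that holds large changes in either direction. Its sign turned with the fibre ratio as a covariate (1.17) and without control library 4 (0.88).

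Ngfr, which encodes the p75 receptor that binds all neurotrophins and their precursors, rose. Ngfr was at 0.35, 0.93, 0.84 and 0.25 CPM in control libraries 1 to 4, and at 2.63, 1.27, 3.28 and 3.04 CPM in tumor libraries 1 to 4. All tumor values were above all control values, for a log2 change of 2.09 ± 0.48 and adjusted p = 0.0164 by edgeR. Ngfr no longer passed when control 1 was left out (adjusted p = 0.0587) or when tumor 3 was (adjusted p = 0.056), over a range of 0.000208 to 0.0587 for all alternatives. The kinase receptor gene Ntrk2 did not pass (log2 change -0.70 ± 0.71, adjusted p = 0.516, edgeR). It passed as lower without control library 4 and tumor library 2 (-1.85, adjusted p = 0.014). Without control library 2 the log2 change was -0.29 (adjusted p = 0.836), and the adjusted p over all alternatives was 0.014 to 0.836. The sorting receptor gene Sort1 did not pass (log2 change 0.39 ± 0.25, adjusted p = 0.308). Ntf5, which encodes neurotrophin 4, the other ligand of Ntrk2, fell from 5.75 ± 0.84 to 1.72 ± 0.56 CPM (adjusted p = 0.00459).

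**Figure D2:**
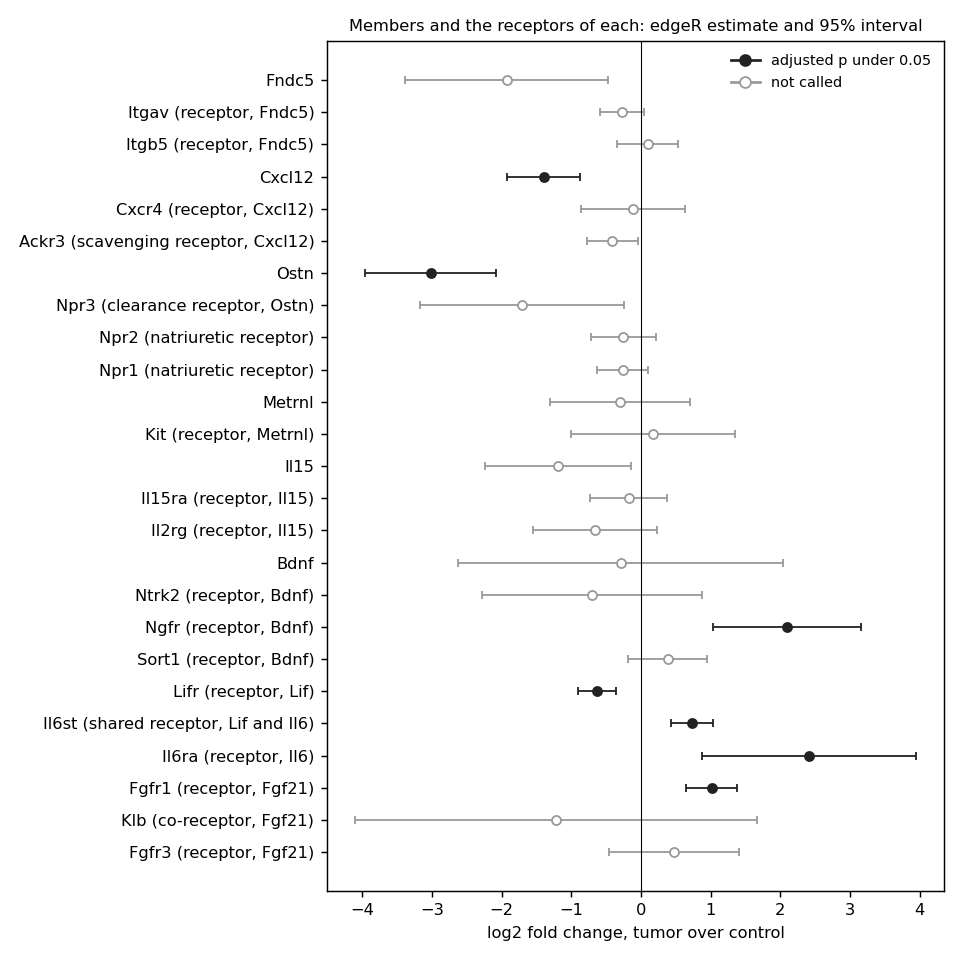
Log2 change of tumor over control (horizontal axis) for the tested members and the receptors of each, with 95% intervals from the edgeR fit; filled points passed an adjusted p under 0.05. Ostn and Cxcl12 lie left of 0, Lifr also, while Ngfr, Il6ra, Fgfr1 and Il6st lie to the right.

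Lif and Il6 encode cytokines that signal through the shared receptor chain gp130. Lif had counts of 15, 11, 10 and 0 in control libraries 1 to 4 and of 0, 0, 2 and 6 in tumor libraries 1 to 4. Its 3 highest libraries were controls, and the groups overlapped because control library 4 had no count. Il6 had counts of 2, 0, 0 and 0 in controls and of 0, 5, 1 and 0 in tumor libraries, at or near the limit of 3 counts below which a level cannot be told from 0. Neither gene reached 10 counts, scaled for depth, in 4 libraries, and no test or fold is given.

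Receptors of these cytokines were well counted and passed the test. Il6st, the gene of gp130, rose from 185 ± 20.8 to 308 ± 32.2 CPM (log2 change 0.74 ± 0.13, adjusted p = 0.00744, edgeR). Lifr, the partner chain for Lif, fell from 68.3 ± 8.17 to 44.2 ± 4.2 CPM (log2 change -0.63 ± 0.12, adjusted p = 0.00994), and neither of these 2 genes had overlapping groups. Il6ra, the specific chain for interleukin 6, was at 4.00, 2.78, 2.92 and 6.41 CPM in control libraries 1 to 4 and at 11.6, 54.8, 15.4 and 3.99 CPM in tumor libraries 1 to 4. Tumor library 2 was far above the rest, and tumor library 4 lay within the control range. Il6ra was called higher (log2 change 2.41 ± 0.69, adjusted p = 0.0372). That call was lost in 7 of 19 alternatives, among them each fit that left out control 1, 2 or 3 or tumor 2 or 3 (adjusted p between 0.0677 and 0.1), and the log2 change was 1.32 without tumor library 2.

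Fgf21 encodes a stress hormone that muscle releases when mitochondria or protein folding are impaired. Fgf21 had counts of 1, 0, 0 and 0 in control libraries 1 to 4 and of 0, 3, 5 and 6 in tumor libraries 1 to 4. Of 15 counts in all, 14 came from 3 tumor libraries, and tumor library 1 had none. The gene was too low to test, and no fold is given, since the controls were at or under 3 counts. Fgfr1, its signalling receptor and one shared with many growth factors, was at 62.1, 87.9, 70.4 and 74.7 CPM in controls and at 171, 142, 168 and 115 CPM in tumor libraries. All tumor values were above all controls (log2 change 1.02 ± 0.16, adjusted p = 0.0049, edgeR), and the rise was called in all 19 alternatives.

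Klb, the co-receptor gene that makes cells respond to Fgf21, did not pass. Klb was at 1.39, 3.44, 0.78 and 0.11 CPM in control libraries 1 to 4 and at 0.099, 2.30, 0 and 0.057 CPM in tumor libraries 1 to 4. The high libraries were control 2 and tumor 2, which also had the highest summed adipocyte markers, to which Fabp4 and Cfd added the most counts (1340 and 1147 CPM, against 178 to 822 CPM in the other controls and 107 to 175 CPM in the other tumor libraries). The part of fat cells in the Klb values was not tested. The log2 change of Klb was -1.22 ± 1.29 (adjusted p = 0.538, edgeR). It became -4.71 (adjusted p = 0.03) without tumor library 2 and -0.31 (adjusted p = 0.91) without control library 2. Over all alternatives the adjusted p ran from 0.00817 to 0.91.

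Of the 21 receptor and co-receptor genes, 19 were tested, 4 rose and 1 fell, and the median log2 change was -0.18. Over all tested genes the median was 0.0029 and 19.8% were called, so that 5 of 19 is near the share over all genes. The count was 3 without control library 1 or without tumor library 3, and 8 without control library 4 and tumor library 2.

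Of the 9 members, 3 followed the order of the fibre ratio in controls and 1 in tumor libraries. With the controls ordered by rising Myh4 ratio (libraries 4, 1, 2, 3), the CPM of Fndc5, Il15 and Bdnf fell at each step. Fndc5 went from 195 to 89.9, 55.3 and 32.4, Il15 from 2.25 to 1.57, 0.99 and 0.67, and Bdnf from 1.52 to 0.63, 0.099 and 0.029 CPM. In tumor libraries, in the order 2, 4, 3 and 1, Bdnf again fell at each step, from 1.14 to 0.37, 0.26 and 0.066 CPM. Fndc5 was highest in tumor library 2 and did not follow this order in the rest, and Il15 was highest in tumor library 1. Ostn followed the order in neither group. The orders rest on 4 libraries each and, for Bdnf, on counts of 1 to 42. Il6 and Fgf21, with no count in 3 controls, could not fall at each step. How many of all tested genes follow these orders was not counted, so the counts do not set the members apart. With the ratio as a covariate the log2 change of Fndc5 was -1.21 (adjusted p = 0.149, over a range of 0.0176 to 0.164 for all alternatives), that of Il15 was -0.87 and that of Cxcl12 was -1.28.

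**Figure D3:**
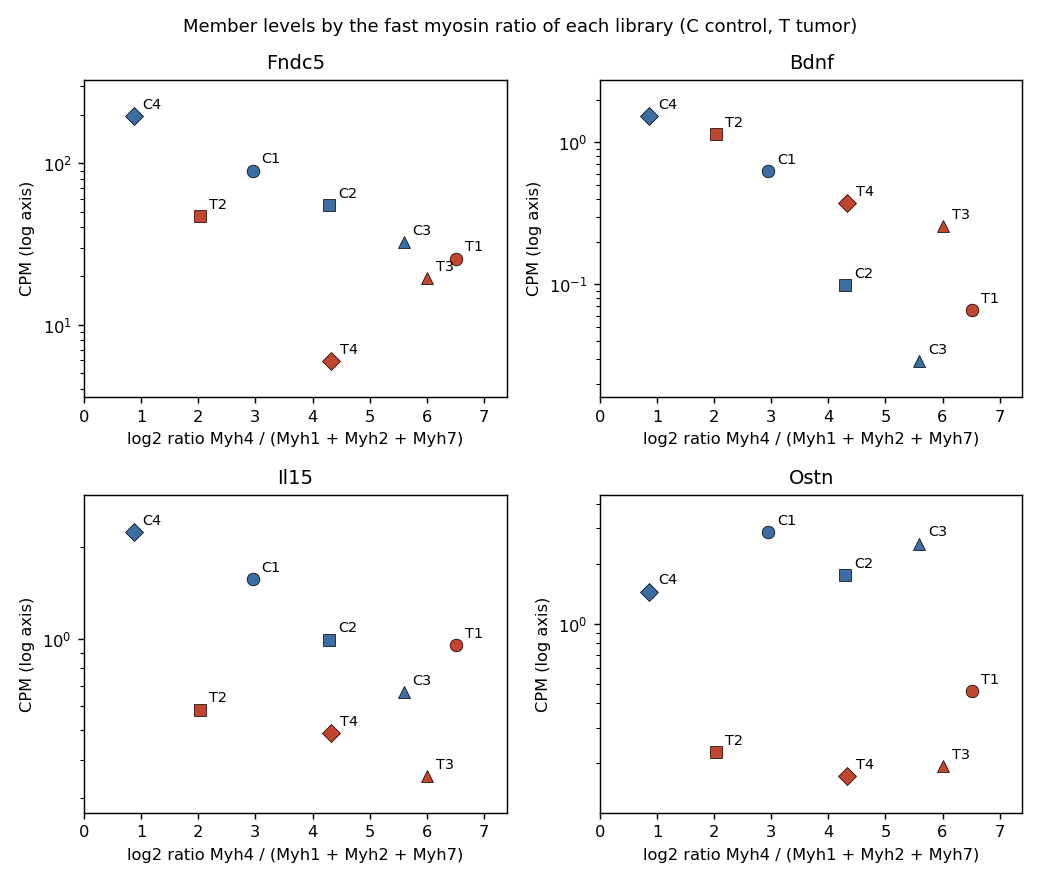
CPM on a log axis against the log2 ratio of Myh4 to Myh1, Myh2 and Myh7 in each library, for Fndc5, Bdnf, Il15 and Ostn; C marks control and T tumor libraries with their number. Control values of Fndc5, Bdnf and Il15 fall from left to right, while the tumor values of Ostn lie below its control values over the whole axis.

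The genes whose centred log2 CPM profiles over the 8 libraries lay nearest to the members that fell were sought among 10232 candidates. For Ostn these were the magnesium transporter gene Slc41a3 and Lrrc38, which encodes an auxiliary subunit of potassium channels, with root mean square differences of 0.34 and 0.35 on the log2 scale. Slc41a3 had a log2 change of -2.42 and Lrrc38 of -2.59. For Cxcl12 they were the Wnt receptor gene Fzd9 (difference 0.17, log2 change -1.63) and Lrrc32 (difference 0.19, log2 change -1.28), which encodes a protein that holds latent TGF-beta at the cell surface. The profiles include the difference between groups, so the falls of these nearest genes follow from the way they were chosen.

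Of 14 genes for enzymes that cut or degrade the secreted factors, 13 were tested and 2 fell, with a median log2 change of -0.31. The called share, 15.4%, is near the 19.8% over all tested genes. Adam17, a sheddase of membrane proteins, had a log2 change of -0.55 ± 0.15 (adjusted p = 0.0314, edgeR), and Pcsk6, a proprotein convertase, of -0.81 ± 0.25 (adjusted p = 0.0458). This count was 0 when control 1, 2 or 4 or tumor 3 was left out, or control 4 and tumor 2 together, and 1 without tumor 4. Furin, which processes many precursors including that of Bdnf, did not pass (log2 change 0.28 ± 0.14, adjusted p = 0.202).

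Of 16 upstream regulators all were tested, 4 rose and 1 fell, with a median log2 change of 0.078. Over all tested genes 19.8% were called, 11% higher and 8.73% lower. The fall was that of Esrra, and the rises were those of Foxo3, Jun, Rela and Foxo1. FOXO1, a forkhead factor, is known to take part in muscle wasting. Foxo3 rose from 27.2 ± 5.24 to 52.0 ± 18.7 CPM (adjusted p = 0.0305, edgeR), and Foxo1 was at the threshold (adjusted p = 0.0495). Atf4, which drives Fgf21 under stress, did not pass (log2 change 0.32 ± 0.21, adjusted p = 0.312), nor did Hif1a (0.073 ± 0.14, adjusted p = 0.753), which is known to induce Cxcl12. When control 1, 2 or 3 or tumor 3 was left out, 1 gene was called, and it was lower. Without tumor 2 the 3 genes called were all lower, and without control 4, 2 rose and 1 fell. With upper-quartile scaling, 1 rose and 2 fell.

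Other secreted factors of muscle fell more often than they rose. Of 60 listed, 45 were tested, 11 fell and 1 rose, and the median log2 change was -0.33, against 0.0029 over all genes. The called share, 12 of 45, is to be read against 19.8% over all genes, and the 11 falls against 8.73%. The list was chosen with earlier results of these data known, so these shares describe the listed genes only. Apln, the gene of the vascular and metabolic peptide apelin, fell from 1.65 ± 0.63 to 0.212 ± 0.019 CPM (log2 change -2.94 ± 0.38, adjusted p = 0.00355, edgeR). Vegfd, a growth factor of lymphatic vessels, was the gene that rose, from 3.63 ± 1.08 to 17.8 ± 7.13 CPM (log2 change 2.29 ± 0.33, adjusted p = 0.00399). Cxcl14, a chemokine without a settled receptor, fell by 0.89 on the log2 scale, and the matrix genes Sparc and Postn fell by 0.82 and 1.99. Igf1, the main local growth factor of muscle, was also among the falls (log2 change -1.89). The list count was 5 without control 1, 6 without control 2 and 5 without tumor 3, and over all genes those fits called 1110, 1373 and 1190. The part of the cell types whose markers are given beside Cxcl12 was not tested.

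**Figure D4:**
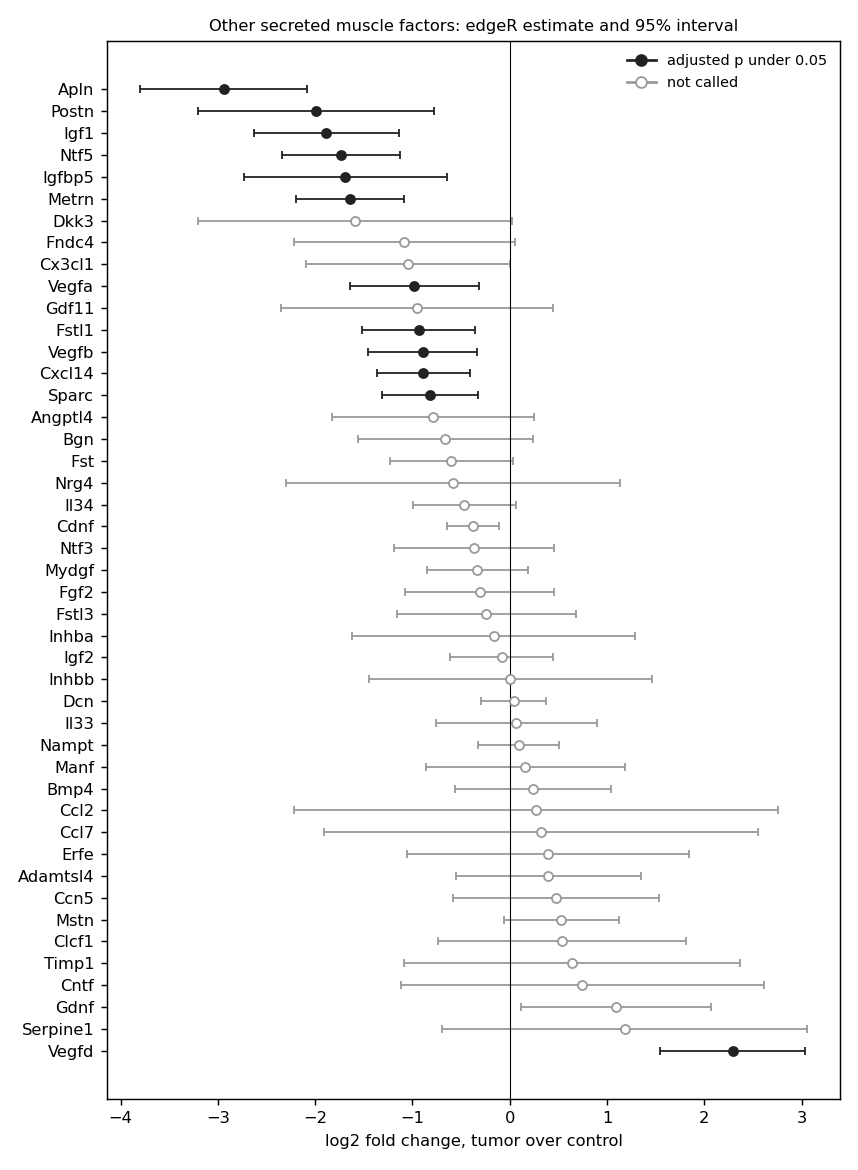
Log2 change of tumor over control (horizontal axis) with 95% intervals from the edgeR fit for the 45 tested genes of other secreted muscle factors, ordered by size; filled points passed an adjusted p under 0.05. Filled points are 11 on the left, with Apln farthest, and Vegfd on the right.

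**Figure D5:**
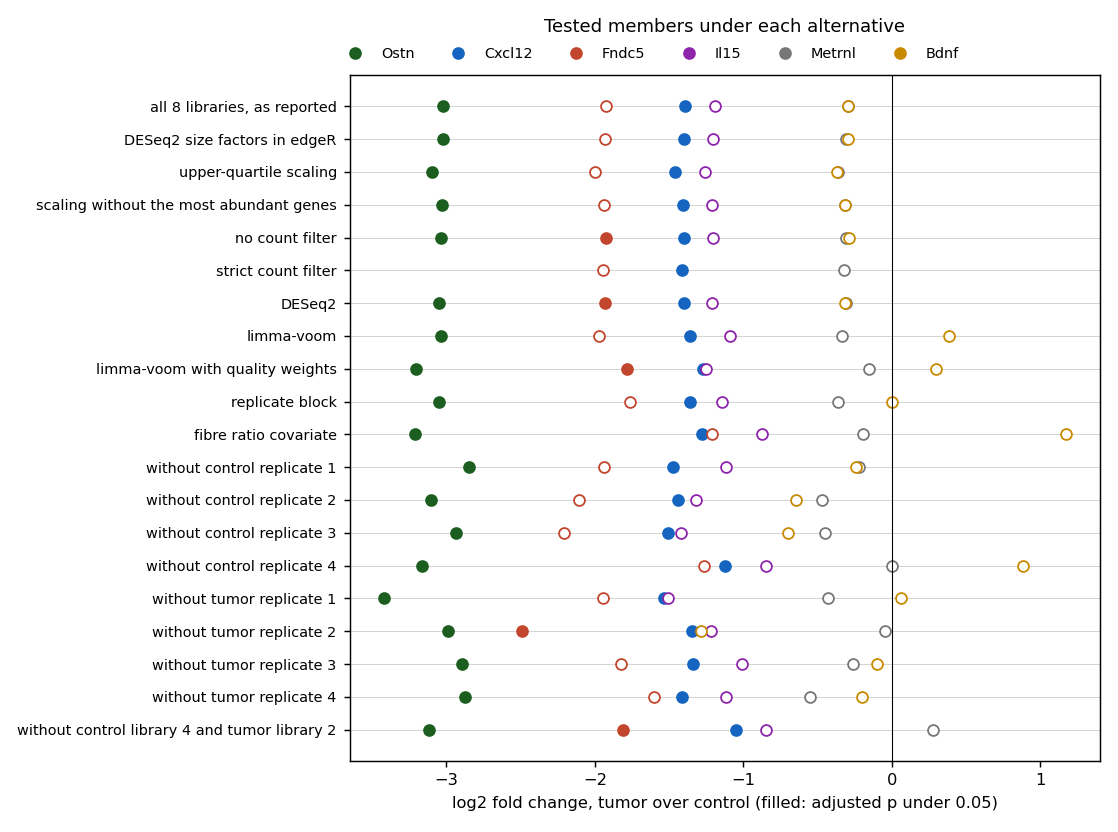
Log2 change of the 6 tested members (horizontal axis) under the fit reported and each of 19 alternatives (rows); filled points passed an adjusted p under 0.05. Ostn and Cxcl12 are filled wherever they were tested, Fndc5 is filled in 5 alternatives, and Bdnf lies on both sides of 0.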

How the data were processed

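Polyadenylated RNA libraries from the quadriceps of 8 mice (4 control, 4 tumor) were analysed from 1 table of estimated counts that the authors deposited, in which 9% of values were not whole. The submitters' processing notes list build GRCm39 and, among tools, Salmon 1.10.1, STAR 2.7.9a, cutadapt 3.4, R 4.2.2 and Trim Galore 0.6.7, without saying what each did. Estimated counts share ambiguous reads by likelihood.

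Counts were rounded. The edgeR function filterByExpr (minimum count 10, in practice 0.325 CPM before scaling in at least 4 libraries) left 14070 genes. Groups were compared with the edgeR 4.0.16 quasi-likelihood test after TMM scaling (R 4.3.3), two-sided, with Benjamini-Hochberg adjustment over all 14070 genes at 0.05. SE is the log2 fold change, without its sign, over the square root of F, and 95% intervals use its t distribution. CPM means and SDs are over 4 libraries. Alternatives included DESeq2 1.42.0 and limma 3.58.1. The steps were tested on simulated counts. No 2 libraries of the same group agreed within sampling noise.

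The members and all lists were chosen with earlier results of these data known. Named were all members, receptors that changed or are the main receptor of a member, up to 8 changed genes per other list with the smallest p, and the 2 nearest profiles of each called member, and the 2 markers of a cell type with the highest CPM. Npr1, Npr2, Ackr3, Il2rg, Sort1, the natriuretic peptide genes, Dpp4, Ppargc1a, Furin, Atf4, Hif1a and the other markers named lie outside this rule and were chosen after their values were seen. Transcript lengths came from GENCODE M21 (GRCm38), matched by symbol, and older symbols were matched through RefSeq synonyms. Sequences came from RefSeq. No protein sequences were used here. Results of 1 marker list are not reported here.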

Additional observations from a re-analysis of the deposited data

Results flagged for a closer look

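Within a group of 4 libraries, a value was singled out when its gap to the nearest other value exceeded 0.829 of the group's range, which chance does in about 1 of 20 groups. In all 22 genes, the 9 members and their main receptors among them, were examined. That made 44 groups, so a few such values would arise by chance. Npr3 in tumor library 2 (6.75 CPM) stood above the other tumor libraries (1.23 to 1.91 CPM), and so did Klb (2.30 CPM, against 0 to 0.099 CPM). Tumor library 2 also had the lowest Myh4 ratio and the highest adipocyte marker sum of its group. Kit in tumor library 4 (0.23 CPM) lay below the other tumor libraries (0.65 to 0.71 CPM). Il6 (0.070 CPM) and Fgf21 (0.035 CPM) in control library 1 stood apart because the other controls had no count, and rest on 2 counts and 1 count.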

How the results depend on the processing

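Ostn (18 alternatives) and Cxcl12 (19) kept direction and call throughout; leaving out each library gave -3.42 to -2.85 and -1.53 to -1.12. Fndc5 passed without a count filter (-1.92), by DESeq2 (-1.93), by limma-voom with quality weights (-1.78) and without control library 4 and tumor library 2 (-1.81), and ran from -2.49 to -1.27 with each library left out. Il15 kept its sign and passed in none of 18. The sign turned for Metrnl without control library 4 and tumor library 2 (0.28; -0.55 to 0.0021 with each library left out). It turned for Bdnf by limma-voom (0.38), with quality weights (0.30) and with the fibre covariate (1.17; -1.28 to 0.88 with each library left out). It also turned for Itgb5 without tumor library 2 (-0.016 to 0.24 with each library left out), for Kit without control library 4 (-0.097 to 0.42), alone or with tumor library 2 (-0.18), and for Cxcr4 with the fibre covariate (0.033) and without tumor library 1 (-0.39 to 0.062). The cause was not tested.

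Over all genes 2781 were called, 4982 with quality weights and 1110 to 2845 with each library left out. Of the members 2 were called, 1 under the strict filter, which removed Ostn, and 2 to 3 with each library left out. Receptor counts were 9 with quality weights, 8 without control library 4 and tumor library 2, and 3 to 6 with each library left out. Enzyme counts were 4 by DESeq2, 1 by limma-voom, 7 with quality weights, 0 without both libraries, and 0 to 3 with each left out. Regulator counts were 3 with DESeq2 size factors, upper-quartile scaling, scaling without the 50 most abundant genes or limma-voom, 9 with quality weights, and 1 to 6 with each library left out. Counts of other secreted factors were 5 to 13 with each library left out and up to 17 (quality weights) over all alternatives.

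With the replicate number as a block, 2 regulators were called, Ostn was -3.05, Cxcl12 -1.36, Fndc5 -1.76, and Il6ra lost its call (adjusted p = 0.131; 0.0096 to 0.136 over all alternatives). Same-numbered libraries of the 2 groups correlated by 0.058, 0.12, 0.24 and 0.020, and differently numbered ones by -0.349 to 0.176. Whether the numbers pair the mice was not tested. Upper-quartile scaling shifted the median over all genes by -0.075. Depth leaves Lif, Il6 and Fgf21 untestable and Bdnf, at 1 to 42 counts, imprecise.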
